A study of Mus musculus with 5 samples.

Results

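The 44 mitosis and G2/M genes described here encode the machinery that carries a cell from the end of DNA replication through division. They were listed by function, and all 44 were found among the 22683 genes of the deposited table. RNA had been sequenced from sorted quiescent satellite cells, the resident stem cells of skeletal muscle, of mdx mice (3 libraries) and of wild-type mice (2 libraries). The mdx strain carries a premature stop in Dmd, the gene of the muscle protein dystrophin, and its muscle degenerates and regenerates repeatedly. No treatment, time point, age or surface markers of the sort were given in the labels. They also did not say whether the libraries of a group came from separate animals, so each p-value reflects only how these libraries varied, part of which may be technical.

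Satellite cells rest outside the cell cycle until muscle is damaged, and then divide to supply new muscle cells and to renew themselves. Entry into mitosis is driven by the kinase Cdk1 with its cyclins. Kinetochores and spindle motors then move the condensed chromosomes, and the anaphase-promoting complex ends mitosis by marking cyclins for degradation. Many of these genes are transcribed together: in resting cells the DREAM complex, built on the MuvB core, holds them down through short promoter elements called CHR, and in cycling cells MuvB acts on the same elements together with B-Myb and Foxm1.

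The values were normalized counts of 12473348 to 15930638 per mdx library and 15217054 and 16825045 per wild-type library, from an estimated 12.8, 13.3 and 14.8 (in units of 1000000 reads) in mdx 1, 2 and 3 and 17.1 and 19.6 in wild type 1 and 2. Dmd was lower in mdx, at 4642, 4116 and 3700 normalized counts in mdx 1, 2 and 3, against 11826 and 9266 in wild type 1 and 2 (log2 fold change -1.34, limma adjusted p = 0.00099). Xist, the RNA of the inactive X chromosome, was 0, 0 and 12 in mdx, against 30235 and 30176 in wild type. The Y-linked gene Ddx3y was 966, 946 and 827 in mdx, against 9 and 0 in wild type. Genotype therefore cannot be told apart from sex in these libraries. Pax7, which defines satellite cells, was present in every library, at 12767, 9751 and 14989 in mdx and 9103 and 7644 in wild type, and did not pass the test (limma adjusted p = 0.0698). Markers of several other cell types were also higher in mdx, as detailed after the gene results. In bulk RNA, fewer cells of a type and less RNA per cell cannot be told apart.

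Of the 44 genes, 30 (68.2%) were higher in mdx and 0 were lower at a limma adjusted p under 0.05, while 14 did not pass. Of the 30, 10 had passed the filter on low values through mdx alone. Of all 18199 genes tested, 14.6% were higher and 10.3% lower, together 24.9%. At an unadjusted p under 0.05, 38.1% of all tested genes differed. In 33 of the 44 genes every mdx library stood above both wild-type libraries, and in 0 below. Over all tested genes these shares were 28.2% above and 23.8% below. The median log2 fold change was 3.47 over the 44 genes, 3.24 over the 36 with a wild-type value above 0, and 0.13 over all tested genes. Here a log2 fold change is the difference between group means of log2(normalized count + 2). The added 2 shrinks differences between low values. Where only 1 wild-type library was at 0, the mean of logs can instead give a larger change than the ratio of group means. Aurka, for example, averaged 99.7 in mdx and 41.5 in wild type, yet its log2 fold change was 2.96.

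All 44 genes passed the filter on low values, a count of at least 10 in at least 2 libraries. For 31 of them at least 1 wild-type library reached 10. Of these 31, 20 (64.5%) were higher and 0 lower, against 11.7% higher and 11.7% lower among the 15966 tested genes of that kind. The other 13 passed through their mdx values alone, so they could be called higher but hardly lower. They gave 10 of the 30 calls (Plk1, Aurkb, Birc5, Ndc80, Nuf2, Kif23, Kif2c, Kif4, Hmmr and Ncapg), and of all 2233 tested genes of that kind 35.4% were called higher and 0 lower. Both wild-type libraries were listed at 0 for 8 genes (18.2%, against 8.0% of all tested genes), Ccnb1, Cdc25c, Plk1, Bub1, Aurkb, Kif23, Kif4 and Hmmr. No fold change is given for them.

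Summed over the 44 genes, the normalized counts were 11108, 27864 and 12675 in mdx 1, 2 and 3, against 2715 and 2793 in wild type 1 and 2. Per 1000000 normalized counts of the library this was 697, 2234 and 910 in mdx, against 178 and 166 in wild type. The wild-type libraries lay close together and every mdx library lay above them, with mdx 2 apart from the other mdx libraries. The mdx 2 library held the highest mdx value for 43 of the 44 genes (97.7%), Ube2c excepted, against 34.9% of all tested genes. In other lists the mdx 2 library was also often the highest of mdx, for 58.5% of other G2/M genes (81.8% of other spindle and cytokinesis genes and 76.5% of cohesin and separase genes), 59.6% of S phase genes and 63.2% of G1 genes. Its value was 3.08 times that of mdx 1 at the median of the 41 genes with a value in mdx 1, and 2.32 times that of mdx 3 at the median of all 44. Over all tested genes these median ratios were 0.972 and 1.0. Without mdx 2 the called count was 12 of 41 tested members (29.3%), against 8.71% of all genes. It was 19 of 44 without mdx 1 (43.2%, against 9.97%) and 10 of 41 without mdx 3 (24.4%, against 8.47%). Without wild type 1 or wild type 2, the 1 wild-type library left shows no spread of its own and is assumed to vary like mdx. A pass in those fits cannot be read like a pass in the main fit.

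**Figure D1:**
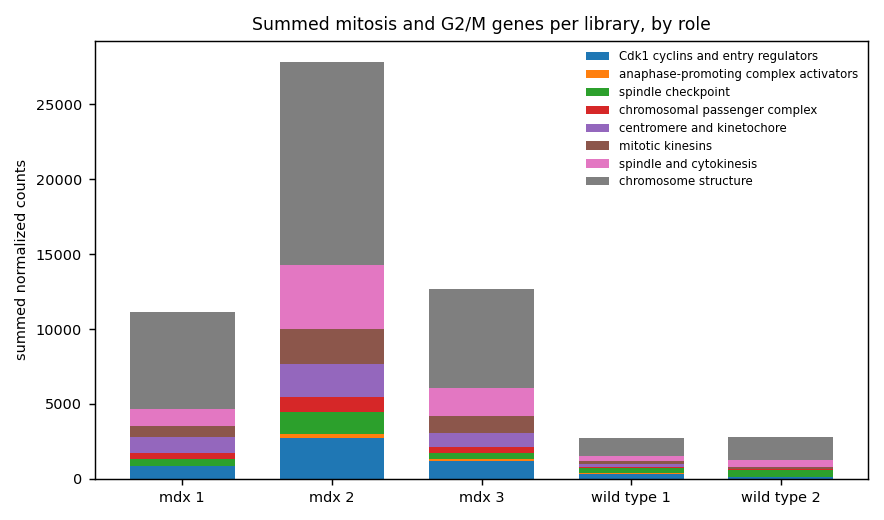
Summed normalized counts of the mitosis and G2/M genes in each library, stacked by role. The mdx bars reach 11108, 27864 and 12675 and the wild-type bars 2715 and 2793, and the chromosome structure genes make up the top block in each.

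**Figure D2:**
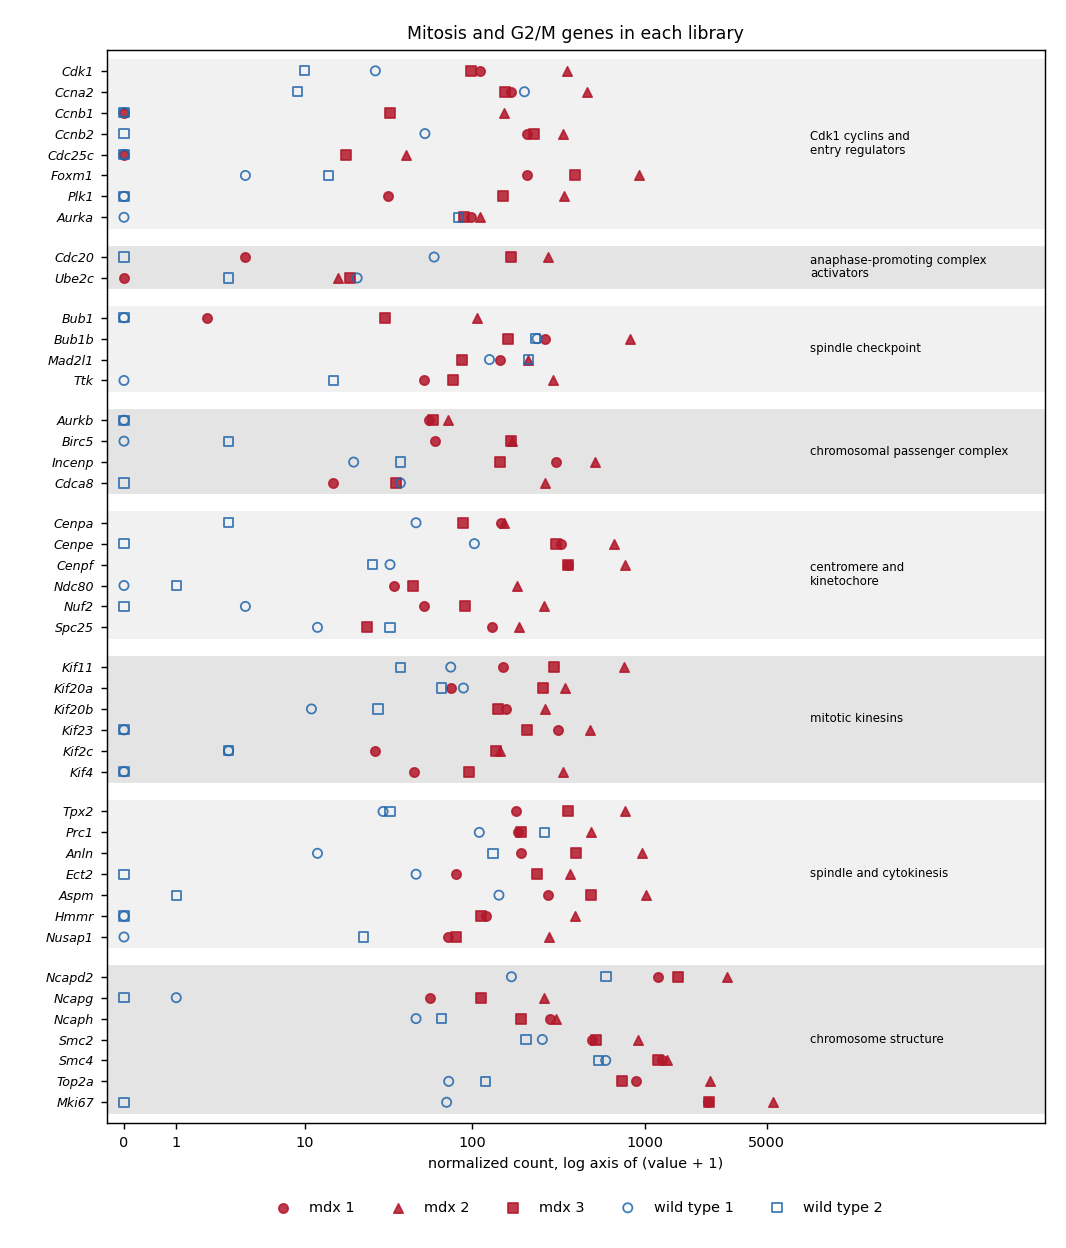
Normalized count of each gene in each library on a log axis of value + 1, grouped by role. Filled red symbols are mdx libraries and open blue symbols wild-type libraries. The mdx 2 triangle is the rightmost mdx symbol for every gene except Ube2c, and for 33 genes all red symbols lie right of both blue ones.

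Promoters could be read for 36 of the 44 genes, as 38 RefSeq promoters of build GRCm38.p6 that run from 250 bases before to 50 after the transcript start. A CHR element, searched as TTTGAA or TTTAAA on both strands, was found in 33 of the 38 promoters (86.8%), against 27.6% of all 32851 mouse promoters in the same table. TTTGAA alone, read as TTCAAA on the other strand, was in 30 (78.9%, against 17.9%), while TTTAAA reads the same on both strands. CCAAT, read as ATTGG on the other strand and bound by the factor NF-Y, was in 29 (76.3%, against 37.4%). Both elements stood together in 28 promoters (73.7%) of 26 genes, against 10.7% of all promoters. An E2F-like site, TTCCCGC or TTGGCGC, was in 8 (21.1%, against 6.81%). In 29 promoters a CHR began between -60 and +50 of the start, a window for which no share of all promoters was counted. Bases just after the listed start were found in a transcript of the same gene for 27 of the 38 promoters. For the rest the position of the start was not checked. A CHR and a CCAAT can share a single end letter, and TTGGCGC can share letters with ATTGG. A match describes letters, not binding. The promoters of Kif23, Cenpf, Top2a and Mki67 are shown because these genes had the smallest adjusted p-values among members whose promoter held both elements. CHR and CCAAT matches on either strand are in capitals, 5′ to 3′ along the gene.
Kif23, chr9:61946750-61947049, minus strand: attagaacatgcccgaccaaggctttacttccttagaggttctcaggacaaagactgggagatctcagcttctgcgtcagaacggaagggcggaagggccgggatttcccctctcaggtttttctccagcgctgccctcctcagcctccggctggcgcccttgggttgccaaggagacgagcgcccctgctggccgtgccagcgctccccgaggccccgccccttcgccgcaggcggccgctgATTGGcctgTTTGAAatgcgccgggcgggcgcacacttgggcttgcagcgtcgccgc
Cenpf, chr1:189688037-189688336, minus strand: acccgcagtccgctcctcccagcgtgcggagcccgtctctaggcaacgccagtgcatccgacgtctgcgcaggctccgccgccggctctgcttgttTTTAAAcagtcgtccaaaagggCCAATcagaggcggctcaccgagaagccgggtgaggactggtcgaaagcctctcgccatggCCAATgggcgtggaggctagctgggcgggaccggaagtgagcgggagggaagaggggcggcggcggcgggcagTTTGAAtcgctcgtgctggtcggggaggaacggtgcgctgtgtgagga
Top2a, chr11:99024140-99024439, minus strand: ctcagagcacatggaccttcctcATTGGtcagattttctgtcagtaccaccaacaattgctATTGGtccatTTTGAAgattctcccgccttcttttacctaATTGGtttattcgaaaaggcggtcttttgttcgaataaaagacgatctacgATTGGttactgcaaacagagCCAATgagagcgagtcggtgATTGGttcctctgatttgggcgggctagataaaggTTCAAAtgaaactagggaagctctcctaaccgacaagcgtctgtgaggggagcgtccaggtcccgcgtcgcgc
Mki67, chr7:135716330-135716629, minus strand: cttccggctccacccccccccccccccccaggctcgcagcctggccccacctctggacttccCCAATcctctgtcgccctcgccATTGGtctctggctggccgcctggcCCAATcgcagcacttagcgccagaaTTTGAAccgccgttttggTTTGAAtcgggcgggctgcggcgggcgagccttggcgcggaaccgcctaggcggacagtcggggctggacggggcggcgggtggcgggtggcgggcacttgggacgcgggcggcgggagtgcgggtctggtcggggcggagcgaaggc
Counted from the first transcribed base as 0, the CHR of Kif23 began at 2. Those of Cenpf began at -154 and 2, those of Top2a at -179 and -23, and those of Mki67 at -116 and -98. CCAAT matches numbered 1 in Kif23, 2 in Cenpf, 6 in Top2a and 3 in Mki67.

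**Figure D3:**
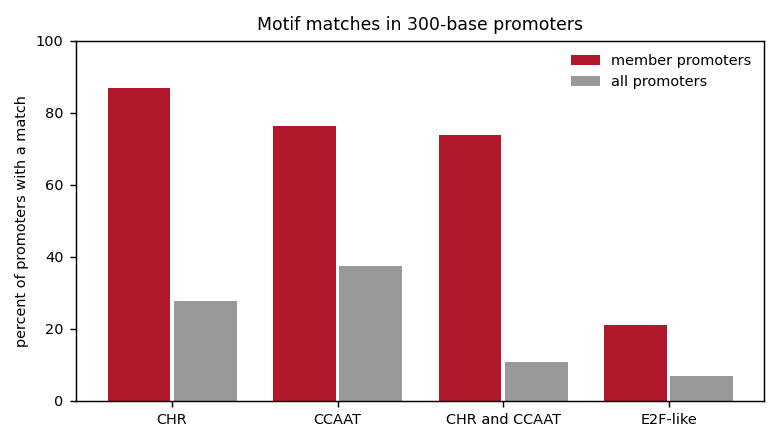
Percentage of 300-base promoters with at least 1 match to each motif, for the 38 promoters of the mitosis and G2/M genes (red) and for all 32851 promoters (grey). CHR matches were in 86.8% against 27.6%, and CHR with CCAAT in 73.7% against 10.7%.

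Chromosome structure was the role in which every gene rose, 7 of 7, with no overlap between the groups in any of them. For this and the roles below, the shares over all tested genes were 14.6% called higher and 28.2% with every mdx library above wild type. Mki67 (chr7:135689784-135716361 in mm10, minus strand), whose protein Ki-67 coats mitotic chromosomes and marks cycling cells, had 2297, 5480 and 2337 normalized counts in mdx 1, 2 and 3, against 71 and 0 in wild type 1 and 2. It averaged 3371 ± 1826 in mdx (SD, n = 3) and 35.5 ± 50.2 in wild type (SD, n = 2). Its log2 fold change of 8.0 (95% interval 5.19 to 10.81, limma adjusted p = 0.0023) was the highest of the 25 called genes with a wild-type value above 0. It was 10.59 without wild type 1, 5.40 without wild type 2, which was listed at 0, and 7.31 after a correction for gene length and GC content. Top2a (chr11:98992943-99024189, minus strand), the topoisomerase that untangles sister chromatids, had 882, 2356 and 736 in mdx, against 73 and 120 in wild type. All mdx values were several times the higher wild-type value (log2 fold change 3.59 with an SE of 0.51, limma adjusted p = 0.00136). A small nucleolar RNA gene, Gm23451, lies within Top2a on the same strand and had 0 in every mdx library, against 400 and 294 in wild type.

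Condensin, the ring complex that compacts chromosomes, rose in all 5 of its listed subunits. The shared subunit Smc4 had 1249, 1335 and 1188 in mdx, against 592 and 539 in wild type, a log2 fold change of 1.15 ± 0.23 (SE, limma adjusted p = 0.00655). Its partner Smc2 had 491, 903 and 521 in mdx, against 255 and 205 in wild type (log2 fold change 1.42, limma adjusted p = 0.0244). These were the smallest fold changes among the called genes, at levels well above 0 in wild type. Ncapd2, a subunit of condensin I, had 1189, 2968 and 1551 in mdx, against 169 and 594 in wild type (log2 fold change 2.47, limma adjusted p = 0.0105). It overlaps the small RNA gene Scarna10, with 12, 3 and 10 in mdx and 82 and 46 in wild type. Ncaph, which closes the condensin ring, had 283, 304 and 192 in mdx, against 47 and 66 in wild type (2.15, 0.0191). Ncapg had 57, 261 and 112 in mdx, against 1 and 0 in wild type (limma adjusted p = 0.00747). Per kilobase of exon, Ncapd2 had the highest mdx level of the 44 genes, at 411 normalized counts per kilobase, followed by Mki67 at 335, Smc4 at 291 and Top2a at 254. In wild type these levels were 82.4 for Ncapd2, 3.53 for Mki67, 131 for Smc4 and 18.5 for Top2a. The calls of Smc2, Ncaph and Ncapd2 ended without any 1 of the mdx libraries (limma adjusted p = 0.0587, 0.0813 and 0.0725 for Smc2 without mdx 1, 2 and 3, up to 0.0755 for Ncaph and 0.0779 for Ncapd2). The log2 fold change of Ncapd2 was 1.57 without wild type 1 and 3.37 without wild type 2.

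Among Cdk1, its cyclins and the regulators of mitotic entry, 4 of 8 genes rose. Foxm1 (chr6:128362967-128376146, plus strand), the transcription factor of this gene program, had 208, 926 and 393 normalized counts in mdx 1, 2 and 3, against 4 and 14 in wild type 1 and 2. The lowest mdx value was far above the wild-type values, with a log2 fold change of 5.44 (95% interval 3.57 to 7.31, limma adjusted p = 0.00186), against 4.73 without wild type 1, 6.15 without wild type 2 and 4.75 after a correction for gene length and GC content. Plk1, a kinase of centrosomes and kinetochores, had 32, 338 and 150 in mdx and stood at 0 in both wild-type libraries (limma adjusted p = 0.0102, and 0.0624 without mdx 3). Cdk1 itself (chr10:69335146-69352938, minus strand) had 111, 356 and 99 in mdx, against 27 and 10 in wild type, a log2 fold change of 3.10 ± 0.88 (SE, limma adjusted p = 0.032). Its fold change was 3.74 without wild type 1 and 2.46 without wild type 2. Ccnb2, a B-type cyclin that activates Cdk1, had 207, 336 and 227 in mdx, against 53 and 0 in wild type (log2 fold change 4.59, limma adjusted p = 0.0279). Its fold change was 6.98 without wild type 1 and 2.20 without wild type 2. Neither call held with 1 mdx library left out (limma adjusted p = 0.0822 to 0.131 for Cdk1 and 0.121 to 0.137 for Ccnb2).

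The other 4 entry regulators did not pass. Ccnb1, the main mitotic B-type cyclin, had 0, 153 and 33 in mdx and 0 in both wild-type libraries (limma adjusted p = 0.208). Near-identical copies of its sequence exist in the genome, the closest 99.2% identical over 1287 bases, so reads may have been split between them. Cdc25c, the phosphatase that switches Cdk1 on, had 0, 41 and 18 in mdx and 0 in both wild-type libraries (limma adjusted p = 0.286). For Ccnb1 and Cdc25c the mdx 1 library shared the 0 of wild type. Ccna2, the cyclin of S and G2 phase, had 167, 461 and 156 in mdx, against 201 and 9 in wild type (log2 fold change 2.29, 95% interval -0.24 to 4.83, limma adjusted p = 0.168). Its wild type 1 value lay within the mdx range and its wild type 2 value far below it, and its exons overlap those of Exosc9 on the opposite strand. The Ccna2 fold change was 4.39 without wild type 1 and 0.19 without wild type 2. Ccnb1 passed without mdx 1 (limma adjusted p = 0.0463). Aurka, a spindle-pole kinase, had 98, 111 and 90 in mdx, against 0 and 83 in wild type. All mdx values were above both wild-type values, but the difference did not pass (log2 fold change 2.96, limma adjusted p = 0.167). Its fold change was 0.25 without wild type 1 and 5.66 without wild type 2.

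The chromosomal passenger complex, which corrects attachments of chromosomes to the spindle, rose in 3 of its 4 subunits. Its kinase Aurkb had an even level in mdx, 56, 72 and 59, and stood at 0 in both wild-type libraries (limma adjusted p = 0.0133). The subunit survivin, encoded by Birc5, had 61, 171 and 167 in mdx, against 0 and 3 in wild type (log2 fold change 5.28, limma adjusted p = 0.0085). The scaffold Incenp had 307, 514 and 146 in mdx, against 20 and 38 in wild type (log2 fold change 3.27, limma adjusted p = 0.0101). In these 3 genes the groups did not overlap. The fourth subunit, Cdca8, encoding borealin, had 15, 264 and 36 in mdx, against 38 and 0 in wild type, and did not pass (log2 fold change 2.64, limma adjusted p = 0.268). The Cdca8 fold change was 4.8 without wild type 1 and 0.47 without wild type 2. The Birc5 call ended without mdx 2 or mdx 3 (limma adjusted p = 0.0514 and 0.0561), and that of Incenp without mdx 1 or mdx 2 (0.0658 and 0.0681). The Birc5 fold change was 4.62 without wild type 1 and 5.94 without wild type 2.

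At the centromere and kinetochore, where chromosomes meet the spindle, 4 of 6 genes rose. Cenpf (chr1:189640606-189688086, minus strand), a kinetochore protein made in G2 and mitosis, had 361, 761 and 359 in mdx, against 33 and 26 in wild type, a log2 fold change of 3.89 ± 0.55 (SE, limma adjusted p = 0.00129). Its wild-type values lay close together and far below the lowest mdx value. Cenpe, a kinetochore motor, had 328, 664 and 306 in mdx, against 103 and 0 in wild type (log2 fold change 4.81, limma adjusted p = 0.0335). Ndc80 and Nuf2, paired subunits of the complex that grips microtubules, were close to 0 in wild type. Ndc80 had 35, 181 and 45 in mdx, against 0 and 1 in wild type (limma adjusted p = 0.0226). Nuf2 had 52, 260 and 91 in mdx, against 4 and 0 in wild type (limma adjusted p = 0.0149). Spc25, another subunit of that complex, had 131, 186 and 24 in mdx, against 12 and 33 in wild type, and did not pass (log2 fold change 1.97, limma adjusted p = 0.217). Cenpa, the histone variant that marks centromeres, had 148, 154 and 88 in mdx, against 47 and 3 in wild type. Its mdx values were all above wild type, yet it did not pass (log2 fold change 3.03, 95% interval 0.61 to 5.46, limma adjusted p = 0.0689). The Cenpa fold change was 4.68 without wild type 1, where it passed (limma adjusted p = 0.000186), and 1.39 without wild type 2, and it also passed with a pseudocount of 10. The Cenpe call ended without any 1 mdx library (limma adjusted p = 0.142 to 0.168), and its fold change was 7.67 without wild type 1 and 1.96 without wild type 2. The calls of Ndc80 and Nuf2 ended without mdx 2 (limma adjusted p = 0.0537 for Ndc80 and 0.0637 for Nuf2) or mdx 3 (0.0602 and 0.0684).

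The spindle checkpoint, which holds the cell in mitosis until every chromosome is attached, rose in 1 of 4 genes. This was Ttk, the kinase Mps1 at its head, with 52, 295 and 77 in mdx, against 0 and 15 in wild type (log2 fold change 4.21, limma adjusted p = 0.041). Its call ended without any 1 mdx library (limma adjusted p = 0.0917 to 0.154), and its fold change was 3.49 without mdx 2, 2.67 without wild type 1 and 5.76 without wild type 2. Bub1, a checkpoint kinase of the kinetochore, had 2, 107 and 31 in mdx and 0 in both wild-type libraries (limma adjusted p = 0.14, and 0.0449 without mdx 1). Bub1b, whose product BubR1 binds Cdc20, had 264, 812 and 161 in mdx, against 238 and 232 in wild type (log2 fold change 0.47, 95% interval -0.95 to 1.89, limma adjusted p = 0.619). Mad2l1, encoding Mad2, had 146, 210 and 87 in mdx, against 126 and 212 in wild type (log2 fold change -0.23, 95% interval -1.55 to 1.08, limma adjusted p = 0.805). The fold change of Bub1b was -0.19 without mdx 2, and that of Mad2l1 was 0.10 without mdx 3 and 0.14 without wild type 2. For Bub1b and Mad2l1 the groups overlapped, and both wild-type libraries held values that Bub1 and Ttk did not reach there. Mad2l1 has a copy, Gm42430, that is 95.4% identical over 454 bases.

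Of 2 genes that act with the anaphase-promoting complex, its activator Cdc20 and its partner enzyme Ube2c, 0 passed. Cdc20, which recruits its substrates, had 4, 276 and 168 in mdx, against 60 and 0 in wild type (log2 fold change 2.56, limma adjusted p = 0.357). Its fold change was 5.04 without wild type 1, 0.08 without wild type 2, 4.29 without mdx 1, 1.52 without mdx 2 and 1.87 without mdx 3. Ube2c, the ubiquitin-conjugating enzyme of the complex, had 0, 16 and 19 in mdx, against 21 and 3 in wild type (log2 fold change -0.24, limma adjusted p = 0.931), with a fold change of 0.86 without mdx 1 and 0.87 without wild type 1. In both genes the values spread widely within each group and the groups overlapped. Ube2c had the lowest mdx level per kilobase of the 44 genes, 5.32 normalized counts per kilobase.

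Of the 6 mitotic kinesins, the motor proteins of the spindle, 5 rose. Kif23 (chr9:61917280-61946774, minus strand), the motor of the centralspindlin complex in cytokinesis, had 315, 482 and 208 in mdx and stood at 0 in both wild-type libraries, with the smallest adjusted p of the 44 genes (limma adjusted p = 0.000651). Kif4, an X-linked motor bound to chromosomes, had 46, 337 and 96 in mdx and 0 in both wild-type libraries (limma adjusted p = 0.00859). Its exons overlap those of Pdzd11 on the opposite strand over 683 bases. Kif11, which pushes spindle poles apart, had 151, 753 and 299 in mdx, against 75 and 38 in wild type (log2 fold change 2.56, limma adjusted p = 0.0307). Kif20b, a motor of cytokinesis, had 158, 265 and 141 in mdx, against 11 and 28 in wild type (log2 fold change 3.21, limma adjusted p = 0.0154). Kif2c, which depolymerizes microtubules at centromeres, had 27, 146 and 137 in mdx, against 3 and 3 in wild type (log2 fold change 4.07, limma adjusted p = 0.032). All 5 had every mdx library above both wild-type libraries, as had 28.2% of all tested genes. Kif23, Kif4 and Kif2c had passed the filter on low values through mdx alone. Of all tested genes of that kind, 35.4% were called higher and 0 lower. Kif20a, another motor of cytokinesis, had 75, 345 and 258 in mdx, against 89 and 66 in wild type, and did not pass (log2 fold change 1.28, limma adjusted p = 0.228). Its mdx 1 value lay between the wild-type values, and its exons overlap those of Cdc23 on the opposite strand over 977 bases. Without mdx 3 the calls of Kif4, Kif11, Kif2c and Kif20b ended (limma adjusted p = 0.0507, 0.121, 0.113 and 0.0638). Without mdx 2 those of Kif11, Kif2c and Kif20b ended (0.118, 0.105 and 0.0793), and without mdx 1 that of Kif20b (0.0618). The Kif20b fold change was 2.61 without wild type 1 and 3.81 without wild type 2, that of Kif11 was 1.95 without mdx 2, and that of Kif2c was 4.84 without mdx 1.

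Among the other spindle and cytokinesis genes, 6 of 7 rose. Tpx2, which activates Aurka on the spindle, had 179, 769 and 360 in mdx, against 30 and 33 in wild type (log2 fold change 3.47 ± 0.68 SE, limma adjusted p = 0.00646, and 0.0597 without mdx 3). Hmmr, a spindle protein that binds hyaluronan, had 120, 393 and 113 in mdx and 0 in both wild-type libraries (limma adjusted p = 0.0029). Aspm, a protein of spindle poles, had 275, 1010 and 485 in mdx, against 143 and 1 in wild type (log2 fold change 4.63, limma adjusted p = 0.037). Anln, encoding the contractile ring protein anillin, had 193, 962 and 400 in mdx, against 12 and 132 in wild type (log2 fold change 3.29, limma adjusted p = 0.0378). Ect2, which switches on RhoA for cytokinesis, had 80, 366 and 239 in mdx, against 47 and 0 in wild type (log2 fold change 4.29, limma adjusted p = 0.0457). Nusap1, a microtubule-binding protein of the spindle, had 72, 279 and 81 in mdx, against 0 and 23 in wild type (log2 fold change 4.08, limma adjusted p = 0.046). The mdx libraries stood above both wild-type libraries for all 6, while the wild-type libraries differed widely from each other for Aspm, Anln, Ect2 and Nusap1. Prc1, which bundles microtubules between the separating chromosomes, had 184, 485 and 191 in mdx, against 110 and 263 in wild type, and did not pass (log2 fold change 0.59, 95% interval -0.75 to 1.93, limma adjusted p = 0.496). The Prc1 fold change was -0.03 without wild type 1. The calls of Aspm, Anln, Ect2 and Nusap1 ended without any 1 mdx library (limma adjusted p = 0.086 to 0.194), and that of Nusap1 also without wild type 1 (0.0564). Without wild type 1 their fold changes were 7.42, 1.66, 6.60 and 2.26, and without wild type 2 they were 1.83, 4.92, 1.98 and 5.91. Without mdx 2 the fold changes of Anln and Nusap1 were 2.69 and 3.47, and without mdx 1 that of Ect2 was 4.91.

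**Figure D4:**
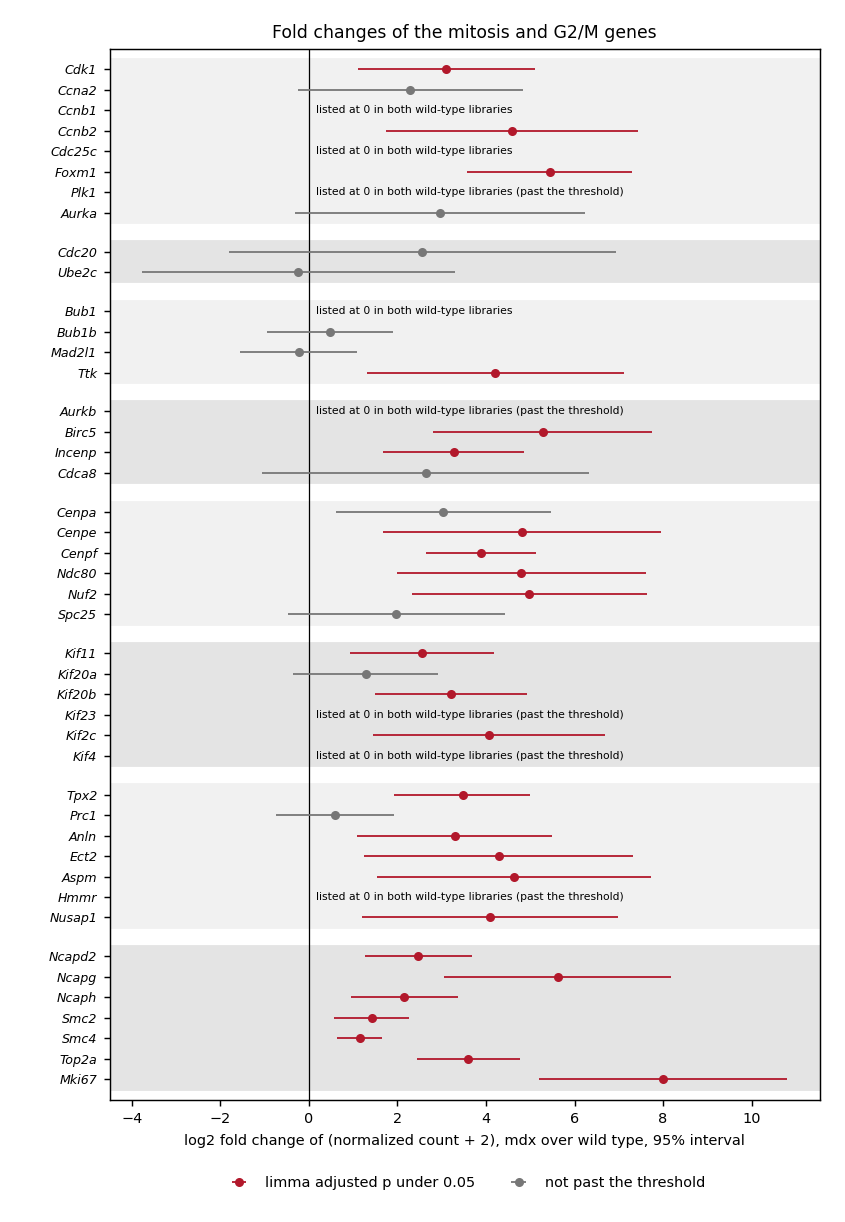
Log2 fold change of each gene, mdx over wild type, with its 95% interval from the limma fit. Red points passed an adjusted p under 0.05 and grey points did not, and genes listed at 0 in both wild-type libraries have no point. The 25 red points all lie right of 0, from 1.15 for Smc4 to 8.0 for Mki67.

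Many of these genes lay near 0 in wild type. Of the 44 genes, 13 were listed at 0 in wild type 1 and 16 in wild type 2, including 8 in both, so 13 were at 0 in exactly 1 of them. In mdx 1, 2 and 3, the numbers at 0 were 3, 0 and 0. Neither wild-type library was lower throughout: wild type 2 was below wild type 1 for 19 genes, above it for 16 and equal for 9. Among the 25 members with a wild-type mean of at least 5 and below 150, 9 (36%) were at 0 in exactly 1 library, against 23.3% of the 7252 tested genes in that range. Of the 30 called genes, 9 kept their call with each of the 5 libraries left out in turn: Foxm1, Aurkb, Cenpf, Kif23, Hmmr, Ncapg, Smc4, Top2a and Mki67. Under the other alternatives Foxm1, Cenpf, Kif23, Tpx2, Hmmr and Top2a kept theirs throughout, so Foxm1, Cenpf, Kif23, Hmmr and Top2a were called in every fit. The correction for gene length and GC content left 16 of the 44 genes called, against 7.96% of all genes. It ended the calls of Cdk1, Ccnb2, Ttk, Incenp, Cenpe, Kif11, Kif20b, Kif2c, Anln, Ect2, Aspm, Nusap1, Ncapd2 and Smc2. All 30 called genes kept a positive fold change in every fit. For the 10 that had passed the filter through mdx alone, Aurkb, Kif23, Hmmr and Ncapg among them, a negative one was hardly possible. Aurkb, Kif23 and Hmmr were at 0 in both wild-type libraries, so leaving out either of these could not change their fold changes.

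The 44 genes are only the core of the G2/M genes listed here, and the other listed genes were called less uniformly. Those others also include subunits of the anaphase-promoting complex and of cohesin, so the contrast depends on what was listed. Of 120 other tested G2/M genes, 22 (18.3%) were higher and 10 (8.33%) lower, shares closer to the 14.6% and 10.3% of all genes. Their median log2 fold change was 0.68. Other spindle and cytokinesis genes included 7 of 21 higher and 0 lower. Arhgap11a, which restrains RhoA, had 100, 248 and 272 in mdx, against 1 and 0 in wild type (limma adjusted p = 0.00248). Other G2/M regulators included 4 of 18 higher and 1 lower. Nek2, a kinase that splits centrosomes, had 111, 271 and 71 in mdx and 0 in both wild-type libraries (limma adjusted p = 0.00497). Other kinetochore and centromere genes included 6 of 30 higher and 1 lower. Hjurp, the chaperone that loads Cenpa, had 1924, 1852 and 1870 in mdx, against 1106 and 606 in wild type (log2 fold change 1.20, limma adjusted p = 0.0126). That call ended without mdx 1, 2 or 3 (limma adjusted p = 0.0726, 0.0681 and 0.0736) and after the length and GC correction (0.161).

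Calls in both directions were made among subunits of the anaphase-promoting complex and of cohesin, where 10.3% of all genes were lower and 14.6% higher. Of 16 other genes of the anaphase-promoting complex, 1 was higher and 4 (25.0%) were lower. Of those 4, the call of Anapc10 ended without mdx 1, mdx 2 or wild type 2 (limma adjusted p = 0.0504, 0.0525 and 0.0749), and that of Cdc26 without mdx 1, 2 or 3 or wild type 1 (0.102, 0.11, 0.0564 and 0.123) and after the length and GC correction (0.0914). Cdc16, one of its core subunits, had 667, 818 and 865 in mdx, against 2160 and 1699 in wild type (log2 fold change -1.30, limma adjusted p = 0.00459). Anapc13, a small subunit, had 21, 38 and 71 in mdx, against 353 and 438 in wild type (log2 fold change -3.28, limma adjusted p = 0.00951). Of 17 cohesin and separase genes, 2 were higher and 3 (17.6%) lower. Smc1a, a subunit of the cohesin ring, had 2518, 2196 and 2309 in mdx, against 4907 and 4289 in wild type (log2 fold change -0.97, limma adjusted p = 0.00439). Pttg1, the securin that restrains separase, went opposite to the core genes, with 31, 82 and 24 in mdx, against 176 and 296 in wild type (log2 fold change -2.47, limma adjusted p = 0.0465). Its call ended without mdx 1, mdx 3 or wild type 2 (limma adjusted p = 0.116, 0.117 and 0.156) and after the length and GC correction (0.0642). Espl1, separase itself, had 72, 281 and 70 in mdx, against 0 and 9 in wild type (log2 fold change 4.61, limma adjusted p = 0.0228). Its call ended without mdx 1, 2 or 3 (limma adjusted p = 0.073, 0.0944 and 0.0784), and its fold change was 3.96 without mdx 2, 3.38 without wild type 1 and 5.84 without wild type 2. After the length and GC correction it was 3.56 and not called (limma adjusted p = 0.114). The structural counterparts Top2b, the topoisomerase of resting cells, and Ncaph2, of condensin II, did not pass (limma adjusted p = 0.149 and 0.251), and 0 of 6 other chromosome structure genes did.

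The DREAM and MuvB genes, listed for the complexes that act on CHR elements, included 2 of 12 higher (16.7%) and 1 lower (8.33%). These shares were near the 14.6% and 10.3% of all tested genes. Rbl1, encoding the pocket protein p107, had 459, 746 and 250 in mdx, against 12 and 0 in wild type (log2 fold change 6.39, limma adjusted p = 0.00186, with 7.79 without wild type 1 and 4.98 without wild type 2). Mybl2, encoding B-Myb, had 108, 211 and 62 in mdx, against 47 and 0 in wild type, and did not pass (log2 fold change 3.53, limma adjusted p = 0.0911). Lin54, the MuvB subunit that touches the CHR element, had 242, 358 and 299 in mdx, against 240 and 381 in wild type (log2 fold change -0.03, limma adjusted p = 0.964). Mybl2 and Lin54 were chosen after their values were seen.

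Genes of earlier cell cycle phases were called in smaller shares than the mitosis genes. Of 45 S phase genes, 10 (22.2%) were higher and 2 (4.44%) lower. Mcm2, of the replicative helicase, had 652, 1103 and 668 in mdx, against 114 and 70 in wild type (log2 fold change 3.10, limma adjusted p = 0.0009). Pcna, the sliding clamp of DNA polymerases, was lower, with 409, 590 and 743 in mdx, against 2792 and 3337 in wild type (log2 fold change -2.43, limma adjusted p = 0.000474). Of 19 G1 cyclins, their kinases and inhibitors, 6 (31.6%) were higher and 1 lower. Cdk6, a G1 kinase, had 1936, 2947 and 1948 in mdx, against 173 and 116 in wild type (log2 fold change 3.96, limma adjusted p = 5.53e-05), or 3.32 after the length and GC correction. Cdkn1c, an inhibitor of Cdk complexes, was also higher, with 1368, 1134 and 1705 in mdx, against 103 and 40 in wild type (log2 fold change 4.38, limma adjusted p = 0.000203). Its fold change was 5.04 without wild type 1, 3.72 without wild type 2 and 3.77 after that correction. Differences between these shares were not tested.

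**Figure D5:**
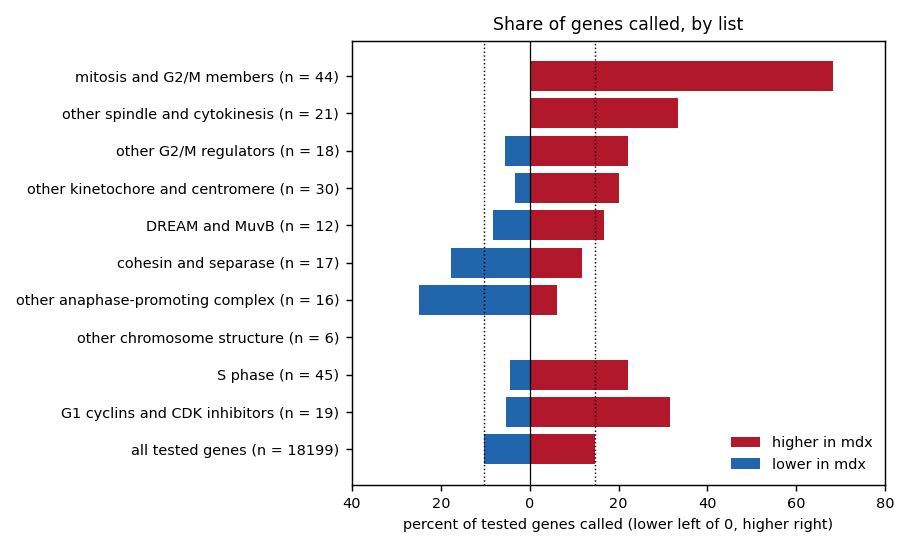
Percentage of tested genes called higher (right of 0) and lower (left of 0) in mdx, by list, with the shares of all 18199 tested genes as dotted lines. The 44 mitosis and G2/M genes had 68.2% higher and 0% lower, and the other anaphase-promoting complex genes had 6.25% higher and 25.0% lower.

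Markers of several other cell types were higher in the same mdx libraries as the mitosis genes. Of all tested genes, 14.6% were called higher, and 8.0% were at 0 in both wild-type libraries. Endothelial markers summed to 21886 to 30336 normalized counts in mdx, against 171 and 348 in wild type, and 12 of 12 rose, with Emcn, Cldn5, Ptprb and Robo4 at 0 in both wild-type libraries. Macrophage and monocyte markers summed to 10802 to 15958 in mdx, against 429 and 740 in wild type, and 11 of 14 rose, with Itgam, Mrc1, C1qa, C1qb and C1qc at 0 in both wild-type libraries. The macrophage sum per 1000000 normalized counts was highest in mdx 2, at 1279, against 813 in mdx 1 and 775 in mdx 3, and the marker Mrc1 had 273, 2066 and 705 in mdx. Fibro-adipogenic markers summed to 114560 to 191665 in mdx, against 41938 and 27850 in wild type, and 11 of 12 rose, with Postn at 0 in both wild-type libraries. Pericyte and smooth muscle markers summed to 9050 to 10622 in mdx, against 3781 and 3348 in wild type, with 4 of 8 higher, 1 lower and none at 0 in both wild-type libraries. Schwann cell markers (1039 to 1537 in mdx, against 356 and 479 in wild type) rose in 6 of 7, and tenocyte markers (7196 to 17538, against 60 and 150) in 5 of 6. S100b and Cdh19 of Schwann cells and Tnmd, Thbs4 and Kera of tenocytes were at 0 in both wild-type libraries. Neutrophil and mast cell markers summed to 351 to 953 in mdx, against 10 and 35 in wild type, with 2 of 6 higher. Mpo, Kit and Cpa3 were at 0 in both wild-type libraries. Mpo (0, 86 and 0 in mdx, not tested) and Cpa3 (50, 67 and 0) were also at 0 in some mdx libraries. Erythroid markers summed to 49 to 866 in mdx, against 33 and 15 in wild type, with 1 of 6 higher. Hba-a1, Hba-a2, Hbb-bt and Alas2 were at 0 in both wild-type libraries, Hba-a2 and Hbb-bt also in mdx 2. Lymphocyte markers summed to 82 to 175 in mdx, against 220 and 48 in wild type, and 0 of 4 passed. Trac (0, 22 and 13 in mdx) and Ms4a1 (0, 0 and 12, not tested) were at 0 in both wild-type libraries.

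Markers of the muscle lineage also differed. Satellite cell markers summed to 66536 to 96434 in mdx, against 139167 and 126255 in wild type, with 3 of 15 higher, 7 lower and none at 0. Calcr, a receptor of quiescent satellite cells, had 1457, 1282 and 1824 in mdx, against 6646 and 4956 in wild type (log2 fold change -1.93, limma adjusted p = 0.000446). Markers of myogenic commitment summed to 4679 to 6211 in mdx, against 1018 and 768 in wild type, and 5 of 8 rose. Mymx, which was not tested, had 55, 1 and 0 in mdx and 0 in both wild-type libraries. Myog, which starts muscle differentiation, had 1806, 1605 and 1491 in mdx, against 91 and 1 in wild type (limma adjusted p = 0.00343). Like the mitosis genes, the neutrophil and mast cell markers were highest in mdx 2, at 22.0, 76.4 and 26.6 per 1000000 normalized counts in mdx 1, 2 and 3. On that scale Schwann markers (65.2, 123 and 91.5) and endothelial markers (1904, 2074 and 1571) were also highest in mdx 2, as were the macrophage markers. So were pericyte and smooth muscle markers (667, 726 and 695) and lymphocyte markers (9.42, 14.0 and 5.89). The mdx 2 library had the smallest total, which raises its values on this scale. Without that scaling the endothelial sum was highest in mdx 1, at 30336, 25872 and 21886 in mdx 1, 2 and 3. The pericyte and smooth muscle sum was then also highest in mdx 1, at 10622, 9050 and 9677. The mdx 2 library was then the highest of mdx for 2 of 12 endothelial genes and mdx 1 for 9. The fibro-adipogenic sum was highest in mdx 1 and the satellite cell sum in mdx 3. Mrc1, Calcr and Myog were singled out after their values were seen. The part of any of these cell types in the values of the mitosis genes was not tested.

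Exons of 14 of the 44 genes overlap those of another gene, 11 of them on the opposite strand, and the strand setting of the counting is not given in the sources used here. Of the 11, Plk1, Kif4, Ncapg and Nusap1 were called. Their annotated partners with values were Pdzd11 at Kif4 (147, 124 and 135 in mdx, against 130 and 179 in wild type), Lcorl at Ncapg (297, 318 and 157 in mdx, against 152 and 401 in wild type) and Oip5 at Nusap1 (0, 7 and 10 in mdx, against 6 and 0 in wild type). None of these partners had all mdx libraries on one side of wild type.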

How the data were processed

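RNA-seq libraries of sorted satellite cells, made with a stranded pico-input kit per the labels' protocols, were compared between genotypes. STAR 2.6.1d, featureCounts 1.6.3 of Subread, DESeq2 1.18.1 and the build mm10 are named in the submitters' processing notes. For strand setting, duplicate reads and filters, the sources used here give nothing. The deposited values are whole numbers treated as a score: normalized counts, that is, reads per gene divided by a size factor and rounded by the authors, as the values themselves show. A read was worth an estimated 1.245, 0.937 and 0.94 in mdx 1, 2 and 3, and 0.891 and 0.86 in wild type 1 and 2. Rounding then merges counts in 4 libraries, raw reads cannot be recovered, and the count model planned for them was not used.

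Values were taken as log2(normalized count + 2). The 18199 of 22683 genes that reached 10 in 2 or more libraries entered a fit with limma 3.58.1 in R 4.3.3, genotype as the only term, moderated along the expression trend and robust to outlying variances. Tests were two-sided, adjusted by Benjamini-Hochberg over all tested genes at 0.05, and intervals are 95%. The script was tested on simulated data.

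The 44 genes, the other lists and the markers were chosen with earlier results of these data known. The values of some marker genes are not reported here. All 44 genes are named. Of the other lists, up to 4 genes called with the smallest p-values were open to be named, except where stated. Exon overlaps and lengths came from GENCODE M21 (GRCm38, the same build), copies of at least 300 bases and 95% identity from BLAST+ 2.17.0, and promoters from RefSeq GRCm38.p6. Alternatives were the pseudocount (1 or 10), no filter, a mean of at least 50, equal totals, quantile normalization, no trend or robust variance, a replicate block, a length and GC correction, each library left out, and a promoter window of 150 bases. Levels per kilobase are normalized counts divided by exon length.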

Additional observations from a re-analysis of the deposited data

How the results depend on the processing

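The count of 30 higher members was 18 without the trend and robust variance, 16 after the length and GC correction and 10 to 33 with 1 library left out. It was 25 with a pseudocount of 1, 31 with 10, 28 without the filter, 29 of 39 with a mean of at least 50, 30 with equal totals and 24 with quantile normalization. The count of lower members was 0 in every fit. Higher calls among other G2/M genes (22) numbered 12 without the trend and robust variance, 10 after the length and GC correction and 9 to 33 with 1 library left out. Lower calls there (10) numbered 4 with equal totals, 2 without the trend and robust variance and 4 to 9 with 1 library left out. S phase higher calls (10) numbered 4 without the trend and robust variance, 4 after the length and GC correction and 3 to 14 with 1 library left out, and S phase lower calls (2) 1, 1 and 1 to 2 with equal totals, without the trend and with 1 library left out. G1 higher calls (6) ranged from 5 to 10 with 1 library left out. G1 lower calls (1) numbered 0 with equal totals and without the trend, and 0 to 3 with 1 library left out. Cenpb and Numa1, called higher, had log2 fold changes of -0.08 and -0.10 after the length and GC correction (limma adjusted p = 0.819 and 0.764). The cause of these changes was not tested, except that leaving out a library also leaves fewer libraries.

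Deviations of libraries with the same replicate number correlated at -0.014 and -0.017, so no pairing by number was seen. The deviations of the 2 wild-type libraries mirror each other, so this check cannot exclude a pairing. With the replicate block, members called higher numbered 10, other G2/M genes 5 higher and 3 lower, S phase genes 4 higher and 1 lower, and G1 lower calls 0, against 6.39% of all genes higher. No wild-type library carries the number 3, so mdx 3 does not inform the fold changes of this fit. They equal those without mdx 3, and the block is not a separate check from that leave-out.

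Of all calls, 58.7% were higher, against 47.3% after the length and GC correction and 67.6% with equal totals. The median log2 fold change of all tested genes, 0.13, was 0.31 with equal totals, 0 with quantile normalization and -0.03 after the length and GC correction. Ccnb1, Cdc25c and Bub1 failed the filter without mdx 2 or mdx 3, and 5 members failed the mean of at least 50. In the 150-base promoter window the member shares were 78.9% for CHR, 65.8% for CCAAT and 60.5% for both, against 12.8%, 23.4% and 3.03% of all promoters. With 1 wild-type library left, that library is assumed to vary like mdx. Depth limits genes near 0: a value of 1 in wild type is about 1 read.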
